A study of Homo sapiens with 6 samples.

Results

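The 100 expressed LINC genes are genes that the deposited table lists under a LINC number, the catalogue name for long intergenic non-coding RNAs. They were selected on their level, as every symbol of LINC plus digits, in a table of 58219 genes, that had 10 or more normalised counts in at least 3 of 6 libraries. Of 1562 such symbols, 1097 were listed at 0 in every library and 365 had reads but fell short of this rule. The libraries hold polyadenylated RNA of IMR90, a human lung fibroblast line with a normal diploid karyotype, carrying an ER-RAS transgene. Its product is oncogenic RAS joined to part of the oestrogen receptor, and it is switched on by 4-hydroxytamoxifen (4OHT). Cells received 100 nM 4OHT for 72 h (3 libraries, A, B and C, labelled committed) or for 30 h (3 libraries, A, B and C, labelled as uncommitted controls), times which the titles write as 3 days and 1.5 days. Both groups carry the same transgene and drug, no group without 4OHT was analysed here, and time and commitment cannot be told apart. Whether the libraries of a group are separate cultures is not stated in the labels. The p-values therefore rest on the spread between libraries, which may be technical.

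Long non-coding RNAs are transcripts that carry no long open reading frame. Many are spliced and polyadenylated like messenger RNAs, are made at low levels, and differ between cell types more than messenger RNAs do. Some act in the nucleus on nearby genes, some in the cytoplasm on RNA or protein, and for most no function is known. A LINC number is a catalogue name given before a function is known, and it is replaced when a gene is found to code for a small protein or to belong to a neighbour. Of the 100 symbols, 22 now have another name and 2 have none.

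The depth was 13221152 to 15703544 assigned reads per library, and the first principal component (81.3% of the variance) set the 2 groups apart. The C libraries of both groups lay apart on the second (6.99%). Of 10 fibroblast markers, 6 fell and 1, FAP, rose at 72 h, and their sum lay between 61769 and 71129 normalised counts at 72 h and between 173900 and 184018 at 30 h. Of 6 endothelial markers only TEK reached the level needed for a test here, and it fell. The endothelial sum lay between 428 and 497 at 72 h and between 669.7 and 933 at 30 h, with CDH5 listed at 0. TEK made up most of that sum, with means of 420 at 72 h and 767 at 30 h. The others with reads, below that level, had higher means at 72 h than at 30 h. These were CLDN5 (12.5 and 0.339), KDR (12.9 and 3.75), PECAM1 (6.37 and 3.02) and VWF (9.60 and 7.18). The authors' deposited table (DESeq2) called CLDN5 and KDR higher at 72 h (adjusted p = 0.00154 and 0.0441). It did not call PECAM1 (0.435) or VWF (0.726), and it called TEK lower. None of 6 epithelial markers (sums of 5.24 to 41.9 at 72 h and 8.77 to 53.8 at 30 h, with KRT5, KRT14 and SFTPC at 0) and none of 6 leukocyte markers (4.09 to 8.72 and 1.02 to 6.82, with CD3E and MS4A1 at 0) reached the level needed for a test. The highest epithelial sums came mostly from KRT19 in library B, with 34.9 at 72 h and 43.7 at 30 h. In the A and C libraries KRT19 had 1.02 to 4.87. The part of all these markers in the results below was not tested. In bulk RNA, fewer cells of a type and less RNA per cell cannot be told apart.

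The LINC genes were a small and weakly expressed part of the RNA. They took 0.0503%, 0.0508% and 0.0524% of the reads in libraries A, B and C at 72 h, and 0.0494%, 0.0490% and 0.0514% at 30 h, ranges that overlap. The median of their mean levels was 26.1 normalised counts, against 423 for the protein-coding genes tested, and it ran from 7.08 to 516. Means lay under 50 for 69 of them and at 200 or more for 9. Exons summed to a median of 3181 bases in 5 blocks, against 5269 bases in 11 blocks for the coding genes. By identifier 99 were found in the GENCODE 29 annotation, which calls 67 lincRNA, 9 processed transcripts, 7 antisense RNAs, 7 protein-coding genes and 5 transcribed unprocessed pseudogenes. Exons of 32 overlapped another gene on the opposite strand, and exons of 19 another gene on the same strand. Whether reads were counted by strand is not stated, so levels of such genes may hold reads of the other gene. Just inside the rule stood LINC02154, LINC01534 and LINC00649, with 10.2, 10.2 and 10.5 normalised counts in the third-highest library. Just outside stood LINC01619, LINC01481 and LINC01629, with 9.75, 9.44 and 9.14. At least 10 counts in all 6 libraries were reached by 71 of the 100.

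At 72 h, 19 LINC genes were higher and 14 lower than at 30 h, and 67 did not pass the test (limma, Benjamini-Hochberg adjusted p under 0.05 over all 13315 genes tested). Over all genes tested, 23.6% rose, 25% fell and 48.6% passed in either direction. The share of LINC genes that passed, 33%, was below that of all genes. Much of the table is more abundant than they are. Among LINC genes with a mean under 50, 20 of 69 passed (29%), against 31.8% of all genes at that level. Among the 31 with a mean of at least 50 it was 41.9%, against 52.5%. The 808 other long non-coding genes tested passed in 29.3%. The median log2 fold change, 72 h over 30 h, was 0.03 over the LINC genes and 0.01 over all genes, and the median size of the change was 0.34 and 0.28. Of the calls, 10 rises and 6 falls were of at least 2-fold. The values of the groups did not overlap for 37 LINC genes, 21 higher and 16 lower at 72 h (37%, against 59.2% of all genes tested). Of the LINC genes, 6 passed the level rule through the 72 h libraries alone (5 of them called). They are LINC02015, LINC02056, LINC00908, LINC02029, LINC01426 and LINC01828. Another 3, LINC00702, LINC01119 and LINC01024, passed it through the 30 h libraries alone (all 3 called). These genes had to differ, so their lack of overlap and their adjusted p are no separate support for a difference.

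**Figure D1:**
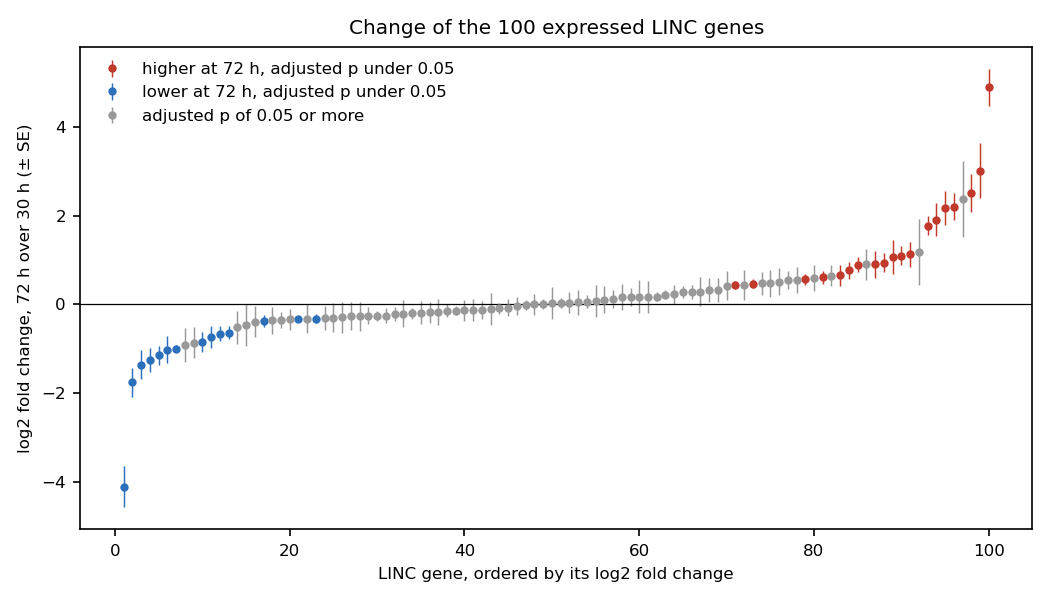
Log2 fold change (72 h over 30 h, y axis, points with bars of 1 limma standard error) of the 100 LINC genes, ordered from the largest fall to the largest rise along the x axis. The 19 rises (red) reach 4.89 and the 14 falls (blue) reach -4.11, while the 67 others (grey) lie between -0.92 and 2.38.

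LINC02015 showed the largest rise. This gene (ENSG00000231574.5, chr3:177816865-177899224, plus strand, GRCh38) had 43.9, 35.7 and 30.4 normalised counts in libraries A, B and C at 72 h, and 0.975, 0 and 0 at 30 h. It was thus almost silent at 30 h and present in every library of 72 h. The reads behind these values were 113 at 72 h and 1 at 30 h, a ratio of 109 with an exact 95% counting interval of 19.1 to 4326, which covers counting error only. The log2 fold change was 4.89 ± 0.41 (limma SE, adjusted p = 1.51e-05), a value that depends on the 1 count added before the log. Its nearest coding gene, KCNMB2, a subunit of a potassium channel, lies 373708 bases away and was listed at 0 in every library. LINC00908 (chr18:76528655-76610968, plus strand) had 24.5, 21.8 and 19.9 normalised counts at 72 h and 4.87, 4.06 and 3.16 at 30 h, with a log2 fold change of 2.21 ± 0.31 (adjusted p = 0.000292). It is 1 of 4 rising genes, out of 14 with a promoter window, that hold an AP-1 motif there. AP-1 is the dimer of FOS and JUN family proteins. The motif was also in 3 of 14 falling genes and in 7.76% of all windows. Over windows whose start matched the deposited one within 100 bases, it was in 2 of 11 rising and 3 of 8 falling genes. A link of the motif to the changes was not tested. The windows of both genes are printed because they show a promoter without and with that motif. They run from 250 bases before to 50 bases after the RefSeq start (GRCh38.p14, plus strand, chr3:177816615-177816914 and chr18:76528405-76528704). Capitals mark CAAT box matches (CCAAT or its complement) in LINC02015 and the AP-1 match (TGANTCA), which starts at position -147, in LINC00908.

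LINC02015: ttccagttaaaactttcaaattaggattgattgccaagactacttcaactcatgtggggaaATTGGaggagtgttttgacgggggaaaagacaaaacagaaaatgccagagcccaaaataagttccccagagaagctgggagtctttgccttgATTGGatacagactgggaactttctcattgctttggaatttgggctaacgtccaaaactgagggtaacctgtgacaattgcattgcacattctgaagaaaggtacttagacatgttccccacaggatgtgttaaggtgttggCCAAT
LINC00908: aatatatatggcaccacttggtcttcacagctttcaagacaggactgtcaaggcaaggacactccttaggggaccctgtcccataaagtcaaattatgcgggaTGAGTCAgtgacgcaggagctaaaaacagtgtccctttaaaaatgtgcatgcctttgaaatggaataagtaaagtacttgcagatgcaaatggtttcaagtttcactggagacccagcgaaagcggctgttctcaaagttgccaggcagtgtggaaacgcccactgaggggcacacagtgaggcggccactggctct

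Other genes with few reads at 30 h rose as well. LINC01705 (ENSG00000232679.1, chr1:222041705-222064763, minus strand) had 47.0, 50.6 and 38.8 normalised counts at 72 h and 11.7, 6.10 and 1.05 at 30 h. The 30 h values spread widely, and the 8.11-fold rise (log2 3.02 ± 0.61, adjusted p = 0.00496) became 4.87-fold without 30 h replicate C (adjusted p = 0.000173). LINC02056 had 13.3, 14.8 and 12.6 normalised counts at 72 h and 0.975, 3.05 and 1.05 at 30 h (log2 2.52 ± 0.42, adjusted p = 0.000941). It passed the level rule through the 72 h libraries alone, so its groups could not overlap. LINC02029 had 25.5, 22.7 and 29.4 normalised counts at 72 h and 2.92, 4.06 and 9.49 at 30 h (log2 2.17 ± 0.39, adjusted p = 0.00131). Its exons overlap LINC00880 on the opposite strand, and without a stated strand setting the reads of such pairs cannot be told apart. LINC01426, which lies next to the transcription factor gene RUNX1, had 12.3, 14.8 and 24.1 normalised counts at 72 h and 4.87, 3.05 and 3.16 at 30 h (log2 1.91 ± 0.37, adjusted p = 0.00212). Here library C of 72 h was the highest by far. The groups could not overlap, since only the 72 h libraries reached the minimum of the level rule.

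Rises also occurred in genes that already had reads in every library at 30 h. LINC00174 had 45.0, 43.6 and 43.0 normalised counts at 72 h and 10.7, 14.2 and 11.6 at 30 h, a 3.42-fold rise (adjusted p = 0.00014), and its exons overlap GTF2IP9, SKP1P1 and other genes on the same strand. LINC00622 had 48.0, 39.2 and 62.9 at 72 h and 17.5, 18.3 and 32.7 at 30 h, a 2.19-fold rise (adjusted p = 0.00804) in which the C library was the highest of each group. LINC01137, now named ZC3H12A-DT as a transcript divergent from ZC3H12A, had 65.4, 62.8 and 79.7 at 72 h and 23.4, 38.6 and 34.8 at 30 h, a 2.15-fold rise (adjusted p = 0.00234). The other 3 rises named for their size, among genes whose groups do not overlap, were smaller than 2-fold. LINC00941 had 182, 171 and 174 at 72 h and 70.2, 81.3 and 133 at 30 h (1.91-fold, adjusted p = 0.00631), so that 30 h replicate C came closest to the 72 h values. LINC00472 had 57.2, 54.1 and 50.3 at 72 h and 29.2, 27.4 and 28.5 at 30 h (1.87-fold, adjusted p = 0.00188), with little spread in either group. LINC00473, a primate transcript known to be induced by cyclic AMP signalling through CREB, had 20.4, 19.2 and 24.1 at 72 h and 9.75, 8.13 and 15.8 at 30 h (1.87-fold, adjusted p = 0.0308). Its call was lost without 72 h replicate A (adjusted p = 0.0724), B (0.0556) or C (0.0841), and without 30 h replicate A (0.0841) or B (0.104).

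**Figure D2:**
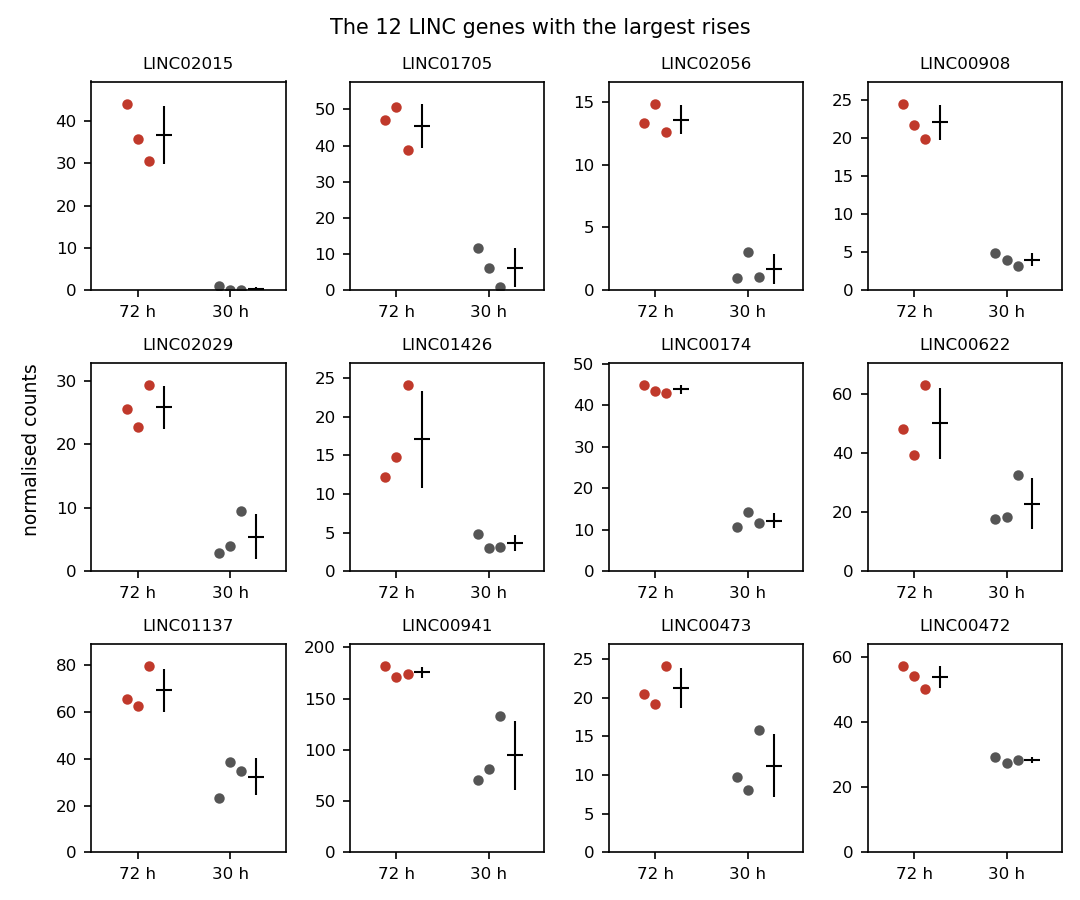
Normalised counts (y axis, from 0, a scale of its own per gene) in the libraries of 72 h (red, left) and 30 h (grey, right) for the 12 LINC genes with the largest rises whose groups do not overlap; crosses are means ± SD, n = 3. By that choice the lowest red point of each gene lies above the highest grey one, and for LINC02015 the grey points lie at 0.975, 0 and 0.

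LINC00702 showed the largest fall. This gene (ENSG00000233117.2, chr10:4201141-4243912, minus strand) had 0, 0.872 and 2.10 normalised counts at 72 h, and 35.1, 23.4 and 32.7 at 30 h. It was near silence in all 3 libraries of 72 h. The reads were 3 at 72 h and 90 at 30 h, which is 31.2-fold lower at 72 h with an exact 95% counting interval of 10.3 to 154, and the log2 fold change was -4.11 ± 0.46 (adjusted p = 8.41e-05). LINC00857 (chr10:80207710-80219657, plus strand) had 16.4, 14.8 and 16.8 normalised counts at 72 h and 35.1, 33.5 and 41.1 at 30 h, a log2 fold change of -1.14 ± 0.21 (adjusted p = 0.00163). The windows of both genes are shown as the falling counterparts of those above (RefSeq, GRCh38.p14, 250 bases before to 50 after the start; LINC00702 on the minus strand, chr10:4243863-4244162, and LINC00857 on the plus strand, chr10:80207460-80207759). Capitals mark an AP-1 match that starts at position 15 in LINC00702 and a CAAT box match in LINC00857.

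LINC00702: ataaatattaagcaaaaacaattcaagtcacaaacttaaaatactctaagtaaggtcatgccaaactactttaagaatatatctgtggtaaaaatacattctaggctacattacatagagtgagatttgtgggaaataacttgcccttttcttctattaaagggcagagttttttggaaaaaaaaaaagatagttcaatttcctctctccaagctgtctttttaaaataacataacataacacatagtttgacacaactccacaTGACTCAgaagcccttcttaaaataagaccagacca
LINC00857: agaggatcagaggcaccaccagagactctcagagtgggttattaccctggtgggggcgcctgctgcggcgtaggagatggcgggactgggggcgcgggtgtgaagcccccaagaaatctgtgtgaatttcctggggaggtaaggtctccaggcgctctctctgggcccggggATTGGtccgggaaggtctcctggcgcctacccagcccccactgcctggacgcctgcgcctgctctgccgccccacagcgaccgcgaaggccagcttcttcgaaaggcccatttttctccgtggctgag

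Further falls of more than 2-fold included a pair of genes named for mitosis. LINC01119 had 4.09, 7.85 and 5.24 normalised counts at 72 h and 24.4, 17.3 and 22.1 at 30 h, which is 3.37-fold lower (adjusted p = 0.00161), and its exons overlap LINC01118 on the same strand. LINC01024, now MALINC1 for mitosis-associated, had 6.13, 6.10 and 5.24 at 72 h and 11.7, 17.3 and 22.1 at 30 h (2.57-fold lower, adjusted p = 0.00695). LINC00704, now MANCR for mitotically associated, had 14.3, 26.2 and 15.7 at 72 h and 51.7, 46.7 and 35.9 at 30 h (2.37-fold lower, adjusted p = 0.00387). Both were named from falls whose groups do not overlap, so that trait came with the choice. LINC01119 and LINC01024 passed the level rule through the 30 h libraries alone. LINC00654 had 15.3, 11.3 and 26.2 at 72 h and 34.1, 40.6 and 30.6 at 30 h (2.03-fold lower, adjusted p = 0.0185). Its groups came close to each other through the C libraries, and it did not pass without 72 h replicate A (adjusted p = 0.0614) or B (0.0621), or without 30 h replicate B (0.0733).

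The other falls were of under 2-fold. LINC00327 had 12.3, 14.0 and 12.6 normalised counts at 72 h and 23.4, 25.4 and 23.2 at 30 h (1.80-fold lower, adjusted p = 0.0132). The gap was wider than the spread of either group, but LINC00327 did not pass by DESeq2 on whole reads. LINC01943 had 15.3, 14.0 and 11.5 at 72 h and 26.3, 23.4 and 20.0 at 30 h (1.66-fold lower, adjusted p = 0.0342). Its call was lost without 72 h replicate B (adjusted p = 0.0653) or C (0.0875), or without 30 h replicate A (0.115) or B (0.0874). Its exons overlap those of CYTOR on the opposite strand, a cytoskeleton-linked long non-coding RNA that averaged 238 ± 20.7 at 72 h and 585 ± 33.5 at 30 h (log2 -1.30), and the reads of the 2 genes cannot be told apart without strand. LINC00511 had 131, 129.9 and 105 at 72 h and 164, 175 and 247 at 30 h (1.58-fold lower, adjusted p = 0.00885). LINC00565, now SWINGN, had 58.2, 60.2 and 66.1 at 72 h and 85.8, 103 and 101 at 30 h (1.56-fold lower, adjusted p = 0.00465). These genes too were named from falls whose groups do not overlap.

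**Figure D3:**
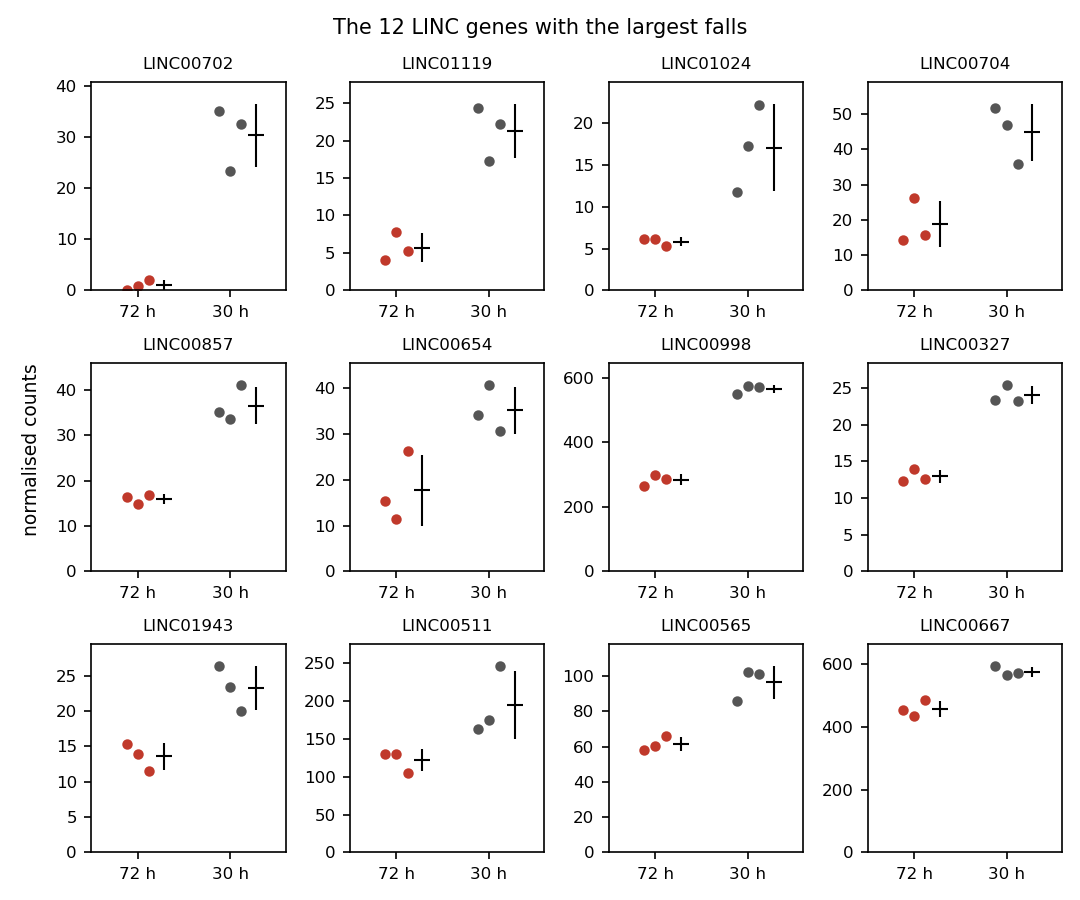
Normalised counts (y axis, from 0, a scale of its own per gene) in the libraries of 72 h (red, left) and 30 h (grey, right) for the 12 LINC genes with the largest falls whose groups do not overlap; crosses are means ± SD, n = 3. By that choice the highest red point of each gene lies below the lowest grey one, and for LINC00702 the red points lie at 0, 0.872 and 2.10.

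Of the 6 most abundant LINC genes, 3 were higher and 2 lower at 72 h, and 1 did not pass. With a mean of at least 50, 41.9% of the LINC genes and 52.5% of all genes tested passed. LINC00667 averaged 457 ± 24.9 normalised counts at 72 h and 576 ± 15.8 at 30 h (SD, n = 3 each) and was 1.26-fold lower (adjusted p = 0.00314). LINC00094 averaged 522 ± 46.1 at 72 h and 386 ± 25.3 at 30 h, LINC01128 455 ± 45.9 and 328 ± 27.3, and LINC00973 327 ± 51.5 and 219 ± 17.0. These 3 were 1.35-fold, 1.38-fold and 1.48-fold higher at 72 h (adjusted p = 0.00258, 0.00298 and 0.00341). LINC00963 averaged 367 ± 52.2 at 72 h and 313 ± 24.4 at 30 h and did not pass (log2 0.22, 95% interval -0.02 to 0.47, adjusted p = 0.123). Per kilobase of exon, LINC00973 had the highest mean over all libraries, with 339.7 normalised counts per kb at 72 h and 228 at 30 h. This rank rests on its GENCODE 29 exons. The RefSeq start of LINC00973 lies 66492 bases from the start in the deposited table. On the opposite strand, exons of LINC00094 overlap BRD3, those of LINC00667 overlap LINC00526 and those of LINC01128 overlap LINC00115. BRD3 averaged 507 ± 69.8 at 72 h and 450 ± 28.6 at 30 h. Reads of such pairs cannot be told apart without strand.

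The sixth, LINC00998, belongs to a set of 7 that GENCODE 29 annotates as coding. LINC00998, now SMIM30, encodes a small membrane protein and had 266, 299.9 and 286 normalised counts at 72 h and 552, 574 and 573 at 30 h. It was 1.99-fold lower at 72 h (log2 -0.99 ± 0.08, adjusted p = 7.31e-06), the smallest adjusted p among the LINC genes. Of the other coding-type genes, LINC00094 (BRD3OS) rose as above, and LINC00959 (C10orf143) averaged 21.9 ± 7.31 at 72 h and 10.1 ± 4.29 at 30 h (log2 1.06, adjusted p = 0.04). That last call was lost without 72 h replicate A (0.147) or B (0.118), or without 30 h replicate B (0.137) or C (0.062). LINC00116 (MTLN) and LINC00493 (SMIM26) code for small mitochondrial proteins and did not pass. LINC00116 averaged 107 ± 13.3 at 72 h and 119 ± 14.4 at 30 h (adjusted p = 0.439), and LINC00493 averaged 237 ± 18.6 and 209.6 ± 21.0 (adjusted p = 0.204). LINC01125 (C2orf92; adjusted p = 0.0501) and LINC00672 (LASP1NB; adjusted p = 0.625) did not pass either.

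The remaining calls were 3 rises and 2 falls. LINC00839 averaged 58.9 ± 11.7 normalised counts at 72 h and 33.8 ± 0.300 at 30 h (log2 0.77, adjusted p = 0.00745). LINC00339 averaged 119 ± 9.94 at 72 h and 77.9 ± 12.9 at 30 h (log2 0.61, adjusted p = 0.00818), and its exons overlap other genes on both strands. LINC00342 averaged 86.9 ± 25.9 at 72 h and 53.4 ± 10.1 at 30 h (log2 0.66, adjusted p = 0.0436), which did not pass without 72 h replicate A (0.136) or B (0.156), or without 30 h replicate A (0.13) or C (0.105). Among the falls, LINC01578 is now CHASERR, known as a transcript beside CHD2 that holds that gene down. It averaged 201 ± 11.7 at 72 h and 251 ± 16.4 at 30 h (log2 -0.32, adjusted p = 0.0196), while CHD2, 488 bases away, averaged 1046 and 1029 (log2 0.02, adjusted p = 0.797). The call of LINC01578 was lost without 72 h replicate B (0.066), or without 30 h replicate A (0.0518) or C (0.0581). LINC00662 averaged 136 ± 22.5 at 72 h and 174 ± 13.0 at 30 h (log2 -0.37, adjusted p = 0.0462), which did not pass without 72 h replicate A (0.165) or B (0.112), or without 30 h replicate A (0.136), B (0.0576) or C (0.09). The other 26 calls were kept without any 1 library.

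The 67 LINC genes that did not pass had log2 fold changes of -0.92 to 2.38. For 45 of them the 95% interval stayed within 2-fold either way, and for the other 22 a change of 2-fold was not excluded by the interval. The largest, LINC01828, named here for its size after the values were seen, had 23.5, 26.2 and 14.7 normalised counts at 72 h and 0, 6.10 and 9.49 at 30 h (log2 2.38 ± 0.86, adjusted p = 0.0573). It passed by edgeR (adjusted p = 0.0201) and DESeq2 (0.00692) on whole reads. It passed the level rule through the 72 h libraries alone, so its groups could not overlap. Its 30 h libraries ran from none to nearly the minimum of that rule.

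Each LINC gene was set beside the protein-coding gene nearest to it. The median distance was 15568 bases, 20 overlapped a coding gene, and 73 lay within 50 kb. On the coding side 75 pairs had a tested gene, of which 17 rose and 23 fell. That is 53.3%, against 51.1% of all coding genes tested, so these neighbours changed about as often as coding genes in general. Among 26 called LINC genes with a tested neighbour, both rose in 7 pairs and both fell in 5. In 3 pairs the LINC gene rose and the neighbour fell, in 1 the reverse, and in 10 the neighbour did not pass. Over the 75 pairs the log2 fold changes had a Pearson r of 0.35 and a Spearman rho of 0.30, given as a description since all pairs come from the same 6 libraries.

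LINC01137 and ZC3H12A formed the closest pair, overlaps aside, in which both rose. ZC3H12A, which encodes Regnase-1, an RNase that cuts the messenger RNAs of cytokines, starts 141 bases from the start of LINC01137 on the other strand (chr1:37474552-37484379, plus; LINC01137 at chr1:37454879-37474411, minus). It had 2113, 2252 and 1702 normalised counts at 72 h and 198, 249 and 349 at 30 h, a log2 fold change of 2.96 ± 0.22 (adjusted p = 0.000171), against 1.10 ± 0.22 for LINC01137. The window of ZC3H12A (RefSeq, GRCh38.p14, chr1:37474330-37474629, plus strand) is shown because it also holds the start of LINC01137, at 37474411. Capitals mark a TATA box match (TATAAA) that starts at position -27.

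ZC3H12A: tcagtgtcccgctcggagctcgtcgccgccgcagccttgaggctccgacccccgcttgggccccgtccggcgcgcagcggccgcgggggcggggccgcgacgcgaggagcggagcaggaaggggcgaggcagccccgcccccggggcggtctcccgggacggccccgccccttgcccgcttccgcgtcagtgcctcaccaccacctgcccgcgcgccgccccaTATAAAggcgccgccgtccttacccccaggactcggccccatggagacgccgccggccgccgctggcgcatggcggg

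Further pairs in which both genes passed in the same direction were farther apart or overlapping. LINC00857 fell with ANXA11, an annexin gene 2138 bases away in the opposite orientation, which averaged 1239 ± 60.6 normalised counts at 72 h and 2497 ± 63.4 at 30 h (log2 -1.01). LINC01119 fell with MCFD2, a cargo receptor subunit of the secretory pathway (4508 ± 133 at 72 h and 6297 ± 555 at 30 h, log2 -0.48). LINC00622 rose with the zinc finger gene ZNF697 (1689 ± 96.3 and 1004.5 ± 89.6, log2 0.75). LINC00908 and LINC00174 rose beside smaller changes of ZNF516 (694 ± 34.7 and 566 ± 38.3, log2 0.30) and of TPST1, which sulfates tyrosines of secreted proteins (975 ± 70.5 and 821 ± 7.56, log2 0.24). TPST1 overlaps LINC00174 on the opposite strand. The adjusted p of these 5 neighbours was 0.0116 or less. LINC00998 fell with GPR85, an orphan receptor gene 28940 bases away (35.6 ± 4.23 and 70.9 ± 8.88, log2 -0.97). LINC00342 rose with ANKRD36C, 20704 bases away (170.3 ± 37.7 and 100.4 ± 15.1, log2 0.74).

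Opposite directions were also found. LINC01426 rose while RUNX1, whose 3' end faces it at 2915 bases, averaged 1554 ± 98.3 normalised counts at 72 h and 1799 ± 70.3 at 30 h (log2 -0.21, adjusted p = 0.0178, and 0.068 without 72 h replicate B). LINC00473 overlaps PDE10A, a cyclic nucleotide phosphodiesterase that averaged 35.8 ± 13.0 at 72 h and 59.3 ± 6.74 at 30 h (log2 -0.76, adjusted p = 0.0276). That call was lost without 72 h replicate A (0.104) or B (0.0788), or without 30 h replicate B (0.0836) or C (0.0616). LINC00654 fell while GPCPD1 rose (789 ± 106 and 568 ± 48.9, log2 0.47, adjusted p = 0.0043), and LINC00973 rose while DCBLD2 fell (log2 -0.53, adjusted p = 0.000123). At larger distances, LINC01705 rose with DUSP10, a phosphatase of p38 and JNK kinases (1520.9 ± 33.9 and 948 ± 39.1, log2 0.68, 299529 bases). LINC00702 fell with KLF6, a zinc finger transcription factor (1821 ± 198 and 4166 ± 383, log2 -1.20, 415860 bases). At 35394 bases, LINC00472 rose with OGFRL1 (3499 ± 130.5 and 2854 ± 354, log2 0.30, adjusted p = 0.0171), and OGFRL1 did not pass without 72 h replicate A (0.0618) or B (0.0586). In 11 pairs the genes start within 1 kb of each other in opposite directions. There 2 LINC genes and 2 neighbours passed, but both genes passed in only 1 pair. The neighbours passed in 18.2%, against 53.3% of all tested neighbours.

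**Figure D4:**
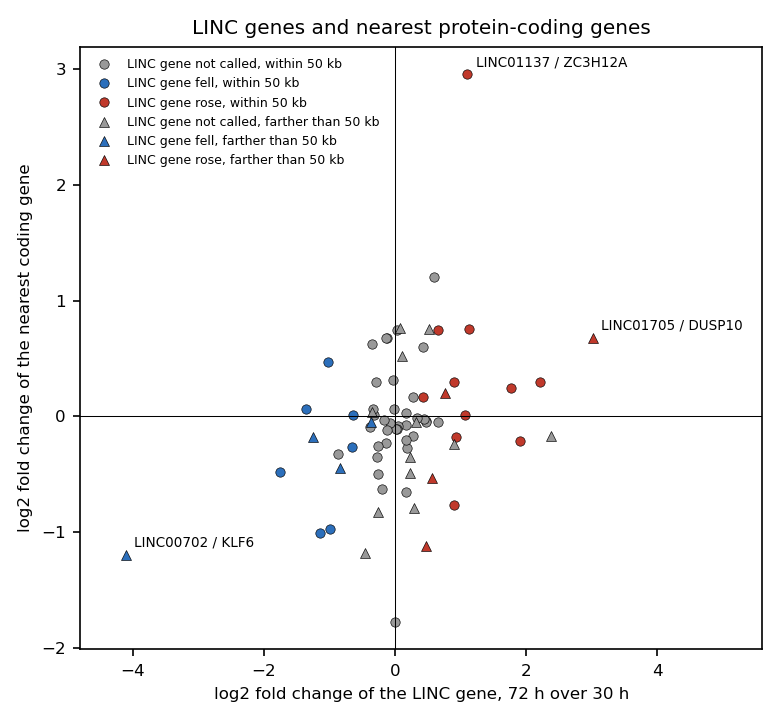
Log2 fold change (72 h over 30 h) of the LINC gene (x axis) against that of its nearest protein-coding gene (y axis) for the 75 pairs with a tested neighbour; circles are pairs within 50 kb, triangles pairs farther apart, and colour gives the call of the LINC gene. LINC01137 with ZC3H12A lies at 1.10 and 2.96, LINC00702 with KLF6 at -4.11 and -1.20, and most grey pairs lie near the vertical line at 0.

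Promoter windows were found in RefSeq for 80 of the 100 genes, and for 47 of these the RefSeq start lay within 100 bases of the start in the deposited table. Their median GC content was 59.2%, against 58.3% for all 27305 windows. AP-1 matches (TGANTCA, both strands) were in 10 of the 80 windows, which is 12.5%, against 7.76% of all windows. They were in 4 of 14 rising, 3 of 14 falling and 3 of 52 other genes. Over the 47 windows with a matching start the counts were 2 of 11, 3 of 8 and 2 of 28. CAAT boxes (CCAAT) were in 48.8% against 35.7% of all windows, ETS matches (CCGGAAG) in 16.2% against 10.7%, TATA boxes (TATAAA) in 13.8% against 12%, E-boxes (CACGTG) in 7.5% against 7.43%, CRE matches (TGACGTCA) in 2.5% against 1.98%, and NF-kB matches in 1.25% against 10.8%. These counts describe letters in the windows and were not tested.

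Long non-coding RNAs with names of their own were read for comparison. Of 25 tested regulatory ones, 4 rose, 7 fell and 14 did not pass (median log2 0.06). LUCAT1 averaged 44.4 ± 16.1 normalised counts at 72 h and 9.53 ± 2.71 at 30 h (log2 2.08), and CARMN, a smooth muscle and cardiac transcript, averaged 4.31 ± 2.48 and 29.8 ± 3.43 (log2 -2.63). Of 19 hosts of small nucleolar RNAs, 7 rose and 3 fell (median log2 0.20), with SNHG18 at -0.89 and EPB41L4A-AS1 at 0.78. Of 13 microRNA hosts, 3 rose and 6 fell (median log2 -0.36). MIR3142HG, the host of miR-146a, averaged 196 ± 30.2 at 72 h and 20.6 ± 13.4 at 30 h (log2 3.35), and MIR100HG had a log2 fold change of -1.39. Over the 3 lists 52.6% of 57 tested genes passed, against 33% of the LINC genes and 48.6% of all genes. These sets were not matched in level. NORAD and FENDRR had means of 5620 and 3574 over the 6 libraries, against 516 for the highest LINC gene. Of all genes tested, 31.8% passed with a mean under 50 and 52.5% with a mean of at least 50.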

How the data were processed

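RNA was measured in 6 libraries made with the KAPA mRNA HyperPrep kit, per the labels' protocols. The submitters' processing notes name Trimmomatic 0.35 for trimming, STAR 2.5.1b for alignment, the build GRCh38 (hg38) and DESeq2 1.18.1 for the comparison. How reads were counted, with which annotation and whether by strand, is not given in the sources consulted.

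The deposited signal values (normalised counts) are read counts which the authors scaled by 1 size factor per library. All values (100%) of a library were multiples of what 1 read is worth, within 0.01 of a whole number, which gave back whole reads for the count tests. These factors lay between 0.948 and 1.15. According to its column names, per the file headers, the authors' table also holds log2 fold changes, a score (the Wald statistic) with standard errors and SDs, and p-values with their adjusted form. These serve as an alternative and where that table is named. Of other per-sample columns, 0 were left out.

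The 13315 genes with 10 or more normalised counts in 3 or more libraries were compared on log2(value + 1) by limma 3.58.1 (trend and robust options, R 4.3.3). P-values were adjusted by Benjamini-Hochberg, and the threshold was 0.05. Fold changes are those of this fit, 72 h over 30 h, and the added 1 understates the change of low genes. The steps were tested on simulated counts, where the share of false calls was a little above nominal. The alternatives included edgeR 4.0.16 and DESeq2 1.42.0 on whole reads.

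The LINC genes, gene lists and the rule for named genes were chosen with earlier results of these data known. Named were the 12 largest rises and the 12 largest falls that passed and did not overlap, the 6 highest means, the nearest coding gene of each, up to 4 members of each list, up to 6 pairs within 50 kb that moved the same way, and 3 genes on each side of the level rule. The remaining called LINC genes and the coding-type members were named so that every call is accounted for. A gene that the rule names is not reported here. Coordinates are those of the table (GRCh38). From them came the distances and the overlaps of whole genes. Strands, exon overlaps, exon lengths and types come from GENCODE 29, in which 91 of the 100 LINC genes had the same start and end.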

Additional observations from a re-analysis of the deposited data

How the results depend on the processing

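The main counts were 19 LINC genes higher and 14 lower at 72 h, 40 called neighbours and 30 called named long non-coding RNAs. With a minimum of 30 in place of 10 normalised counts in 3 libraries, 13 were higher and 9 lower. LINC genes below that minimum were not tested in this setting. Under the other settings with all 6 libraries the counts were 18 to 22 higher, 10 to 14 lower, 34 to 40 neighbours and 28 to 30 named RNAs. DESeq2 gave 18 higher and 10 lower. Without each library in turn they were 16 to 20, 10 to 14, 32 to 42 and 26 to 29.

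The replicate letters do not pair the samples by the labels. After removal of group means, libraries of 1 letter correlated at 0.00696 for A, 0.172 for B and 0.185 for C, and 4 of 6 libraries correlated best with their own letter, a hint from the data and not the design. With a replicate block 22 LINC genes were higher and 14 lower, and LINC00963 passed (adjusted p = 0.0475).

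By DESeq2, 6 of the 33 calls did not pass: LINC00473 (adjusted p = 0.117), LINC00327 (0.0912), LINC01943 (0.155), LINC00959 (0.0735), LINC01578 (0.0589) and LINC00662 (0.0914). LINC01828, not called by limma, passed by edgeR (0.0201), by DESeq2 (0.00692) and in the authors' deposited table (0.0135). LINC01943 also missed it with no filter on low values (0.0799), and RUNX1 (0.0593) and OGFRL1 (0.0616) without the trend and robust options. The cause was not tested. Signs turned only for neighbours with adjusted p far above the threshold. The log2 fold change of AKR1E2, nearest to LINC00704 (-0.18), ran from -0.48 to 0.185 without each library, and was 0.0902 without 72 h replicate B. That of the clone-named gene nearest to LINC00565 (0.01) was -0.00371 with 5 added before the log, -0.0478 with quantile normalisation, -0.0909 by edgeR, -0.0919 by DESeq2 and -0.0936 in the authors' deposited table, and ran from -0.355 to 0.349 without each library. Means lay under 50 for 69 of the 100 genes, where small changes may be missed, which was not tested.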

Other observations

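LINC genes below the level rule also held calls. In the authors' deposited table, 105 of them have an adjusted p-value, and 4 were called higher and 3 lower at 72 h. LINC00536 had 9.20, 8.72 and 8.39 normalised counts at 72 h and 0.975, 0 and 0 at 30 h, with an adjusted p of 0.00513 in the authors' deposited table. LINC00996 had 11.2, 9.59 and 6.29 at 72 h and 0, 0 and 2.11 at 30 h (0.0149 in the authors' deposited table). The other LINC genes called higher there were LINC01348 and LINC01759. LINC00707 had 1.02, 0.872 and 0 at 72 h and 13.6, 7.11 and 13.7 at 30 h (0.00373 in the authors' deposited table), and LINC01293 and LINC00517 were the others called lower there. All 7 rest on few reads. Among the 100 LINC genes above the rule, the authors' deposited table called 18 higher and 10 lower, and 27 of these were also called by limma in the same direction.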
